A study of Mus musculus with 4 samples.

Results

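The fibroblast growth factor (FGF) family was examined through 10 of the 56748 genes in the count table, the receptor genes Fgfr1, Fgfr2, Fgfr3 and Fgfr4 and the ligand genes Fgf1, Fgf2, Fgf7, Fgf10, Fgf18 and Fgf21. They were chosen by symbol as the receptors and a set of ligands of the pathway, with earlier results of these data known. Each symbol matched 1 gene. The samples were lungs of female BALB/cJ mice that carried metastases of 4T1, a mouse triple-negative breast cancer (TNBC) cell line, injected through the tail vein at 7 weeks of age. A pair of samples came from the control group, named saline in the titles and PBS in the treatment label, and another pair from the ADC/cmLumiOpto group. The latter received a CD276-targeted antibody that carries mertansine (DM1, a microtubule inhibitor) and the mitochondria-depolarizing gene therapy cmLumiOpto. The labels give 16 mg/kg for the antibody-drug conjugate (ADC) and the unexplained term Olap, the study's methods give a lower dose, and the design text puts harvest after 3 weeks of treatment. All 4 mice carried the 4T1 cells and none was free of tumor. Conjugate and vector were given together, so their parts cannot be told apart.

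FGFs are secreted proteins that bind receptor tyrosine kinases on the cell surface together with heparan sulfate, and the activated receptors signal through the adaptor FRS2 to the RAS and MAP kinase cascade. In the lung, FGF10 and FGF7 made by mesenchymal cells act on the epithelial splice form of FGFR2 and drive branching, growth and repair of the epithelium, and FGF18 takes part in the formation of alveoli. FGF1 can bind every FGFR, FGF2 acts mostly on mesenchymal splice forms, and FGF21 is a hormone that needs the co-receptor β-Klotho. In breast cancer, FGFR1 and FGFR2 are known as growth-promoting receptors. Reads were counted per gene, so the epithelial and mesenchymal splice forms of a receptor were not separated.

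Total counts were between 15263375 and 19675436 per sample. At this depth 3 counts, taken as the floor of detection, correspond to 0.152 to 0.197 CPM (counts relative to library size), which covers counting error only. CPM values below are scaled by the TMM method of edgeR, and all log2 fold changes are ADC/cmLumiOpto over saline. The name 4T1 in the labels describes tumor cells taken from lung, whereas the methods describe dissociated lung tissue. RNA of normal lung was present in every library, and the surfactant gene Sftpc (ENSMUSG00000022097), which defines alveolar type 2 cells, was at 1017 and 174 CPM in saline replicates 1 and 2 and at 4321 and 3426 CPM in ADC/cmLumiOpto replicates 1 and 2. Saline replicate 2 thus had the least of this transcript, and the groups did not overlap. In such bulk RNA, fewer cells of a type and less RNA per cell cannot be told apart. Nothing in the labels names a sequencing batch. The p-values measure the spread between mice, of which there were only 2 per group, where the smallest two-sided p of an exact permutation test is 0.333.

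After ADC/cmLumiOpto, the FGF genes split in direction. Fgfr1, Fgfr2 and Fgf2 had lower mean CPM, and Fgfr3, Fgfr4, Fgf1, Fgf7, Fgf10 and Fgf18 had higher mean CPM, between 1.33-fold (Fgf10) and 3.37-fold (Fgf7) in the fit. Fgf21 was at or near 0 in all 4 samples. In edgeR's quasi-likelihood test, 0 of the 9 FGF genes that passed the expression filter had an adjusted p under 0.05, and over all 15320 tested genes the called share was likewise 0% (0 genes). At an unadjusted p under 0.05 there were 4, Fgfr1 and Fgfr2 in the lower direction and Fgfr3 and Fgf7 in the higher direction, against 23.2% of all tested genes (11.0% higher and 12.2% lower). For 8 of the 9 tested FGF genes the samples of the groups did not overlap, with 2 lower and 6 higher after treatment. The share over all tested genes was 57.0% (28.8% lower and 28.1% higher). Fgf21, which was not tested, overlapped. On the TPM scale the groups also did not overlap for 8 genes, but 3 were lower and 5 higher. The length of a gene is the same in every sample. This difference therefore lies in the common total to which the length-divided counts of each sample are rescaled. There Fgfr3 overlapped, at 3.65 TPM in saline replicate 1 and 3.62 TPM in ADC/cmLumiOpto replicate 1, and Fgf2 did not, at 7.33 TPM in saline replicate 2 and 6.13 TPM in ADC/cmLumiOpto replicate 1. Fgfr4, Fgf7 and Fgf18 reached the CPM cutoff of the filter in both treated samples but in only 1 saline sample, so they were tested by virtue of their level after treatment.

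**Figure D1:**
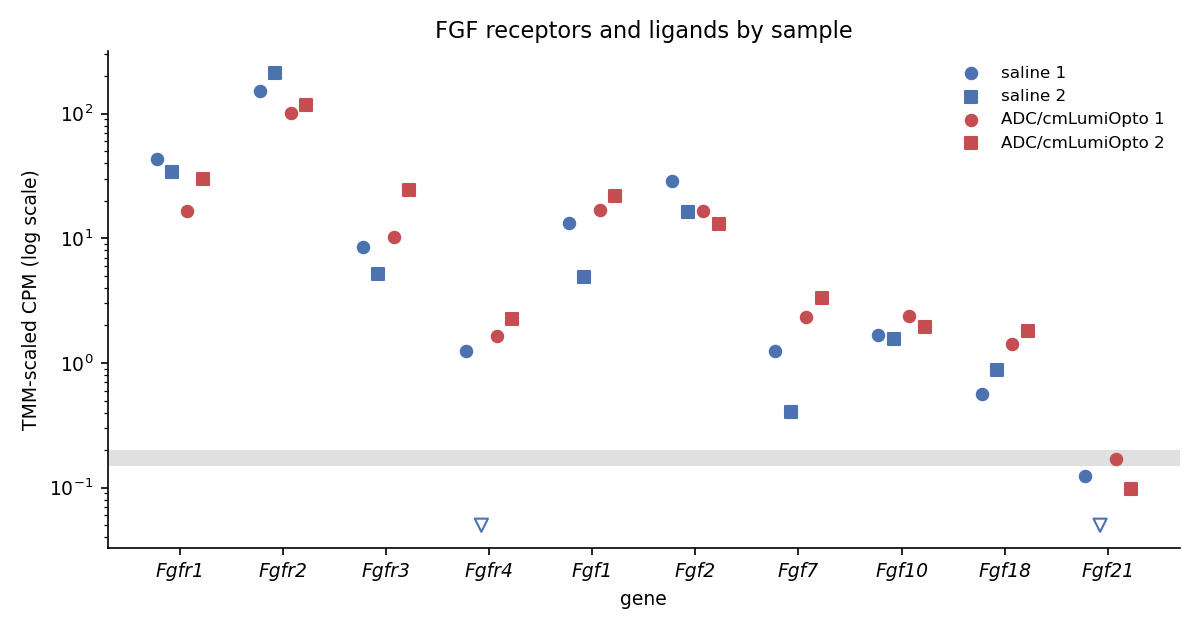
TMM-scaled CPM (log scale) of each FGF gene in the 4 samples, with saline in blue and ADC/cmLumiOpto in red, circles for replicate 1 and squares for replicate 2. The grey band is the range of the 3-count floor over the samples, and open triangles mark samples with 0 counts (Fgfr4 and Fgf21 in saline replicate 2). The treated points lie below both saline points for Fgfr1 and Fgfr2 and above them for Fgfr3, Fgfr4, Fgf1, Fgf7, Fgf10 and Fgf18.

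Fgfr2 (ENSMUSG00000030849) encodes the receptor for FGF7 and FGF10 on epithelium and was the most abundant of the 10 genes. It is listed on the minus strand of chromosome 7 from 129764181 to 132725079, a span that also holds 71 other listed genes. Positions are those given with the counts. The labels name mm39, the study's methods name GRCm38, and only 1472 of 52073 shared identifiers had the position of the GRCm38 annotation. The level of Fgfr2 was 151 and 210.2 CPM in saline replicates 1 and 2 and 102 and 116 CPM in ADC/cmLumiOpto replicates 1 and 2. Both treated samples were thus below both saline samples, and the highest value was in saline replicate 2. The log2 fold change was -0.73 (standard error 0.21, edgeR adjusted p = 0.134), and it stayed between -0.96 and -0.47 when each sample was left out in turn. With DESeq2 in place of edgeR, Fgfr2 was the only gene of the 10 to be called, at a log2 fold change of -0.72 and an adjusted p of 0.0352. DESeq2 called 8.69% of all tested genes, 4.94% in this direction and 3.75% in the other. The edgeR exact test called 0 of the 10 genes, beside 7.64% of all tested genes (3.96% higher and 3.68% lower). Without the filter on low counts 5 of the 10 were called, Fgfr1 and Fgfr2 lower and Fgfr3, Fgf1 and Fgf7 higher, beside 8.84% of all genes then tested (4.79% higher and 4.05% lower). With the replicate number as a block 0 were called, beside 3.96% (2.01% higher and 1.95% lower).

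Fgfr1 (ENSMUSG00000031565, chromosome 8, 26003670 to 26065734, plus strand) encodes the receptor that prevails in mesenchymal cells. Its level was 43.1 and 34.3 CPM in saline replicates 1 and 2, and 16.4 and 29.7 CPM in ADC/cmLumiOpto replicates 1 and 2. The groups were separated by less than the distance between the treated samples. The log2 fold change ranged from -1.24 without ADC/cmLumiOpto replicate 2 to -0.38 without ADC/cmLumiOpto replicate 1, around a value of -0.75 (standard error 0.30) with all samples.

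Fgfr3 (ENSMUSG00000054252, chromosome 5, 33879018 to 33894412, plus strand), a receptor known as a restraint on bone growth and an oncogene in bladder cancer, had the opposite direction. Its counts were 137 and 77 in controls against 181 and 498 in treated lungs, which is 8.56 and 5.19 CPM against 10.3 and 24.3 CPM. ADC/cmLumiOpto replicate 2 was more than 2-fold above every other sample, while replicate 1 was close to saline replicate 1. The log2 fold change was 1.33 (standard error 0.47, edgeR adjusted p = 0.172) with all samples and 0.57 without ADC/cmLumiOpto replicate 2. Fgfr4 (ENSMUSG00000005320, chromosome 13, 55300453 to 55316572, plus strand), best known as the bile acid-regulating receptor of liver, was rare, with counts of 20 and 0 in controls against 29 and 46 in treated lungs. The 0 in saline replicate 2 allows up to 0.202 CPM on the TMM scale, and the treated mean of 1.94 CPM was at least 9.61-fold higher than this floor of 3 counts in that library. Saline replicate 1, at 1.25 CPM, was close to ADC/cmLumiOpto replicate 1, at 1.64 CPM. The fit gave a log2 fold change of 1.61 with a standard error of 1.13, and 0.64 without saline replicate 2. As stated above, Fgfr4 was tested by virtue of its level after treatment.

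The sequences just upstream of an annotated start of 4 of these genes are shown because the fitted values of Fgfr2 and Fgfr3 had opposite signs, although neither was called by edgeR, and because Fgf7 and Fgf10 encode the ligands of FGFR2 on epithelium. Each is the stretch of 250 bases that ends at an annotated start, from RefSeq on GRCm38.p6, a build that differs from the positions above, and is written 5′ to 3′ on the strand of the gene. For Fgfr2 the gene as counted begins at 132725079 on the minus strand, and the window lies far from it. The gap exceeds the position differences of the other printed genes. The Fgfr2 stretch therefore belongs to another start than that of the gene as counted. Capitals mark matches on either strand to the GC box GGGCGG, the TATA box TATAAA or the CCAAT box CCAAT, and these motifs do not overlap each other here. Fgfr2 lies at chr7:130266809-130267058 (minus strand), Fgfr3 at chr5:33721474-33721723 (plus), Fgf7 at chr2:126034408-126034657 (plus) and Fgf10 at chr13:118714449-118714698 (plus).
Fgfr2: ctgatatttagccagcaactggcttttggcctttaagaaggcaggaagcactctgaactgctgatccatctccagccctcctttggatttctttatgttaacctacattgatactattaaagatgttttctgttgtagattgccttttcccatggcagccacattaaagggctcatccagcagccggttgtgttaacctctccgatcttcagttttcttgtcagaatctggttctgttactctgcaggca
Fgfr3: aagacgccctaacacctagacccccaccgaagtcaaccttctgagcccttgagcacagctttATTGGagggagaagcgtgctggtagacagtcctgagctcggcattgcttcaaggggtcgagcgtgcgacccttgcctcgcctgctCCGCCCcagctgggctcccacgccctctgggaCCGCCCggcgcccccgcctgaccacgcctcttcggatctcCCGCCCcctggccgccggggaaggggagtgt
Fgf7: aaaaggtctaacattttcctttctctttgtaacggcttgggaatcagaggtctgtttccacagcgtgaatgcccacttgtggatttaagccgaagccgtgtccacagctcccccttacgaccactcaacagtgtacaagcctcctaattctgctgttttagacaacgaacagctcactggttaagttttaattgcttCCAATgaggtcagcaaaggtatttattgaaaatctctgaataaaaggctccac
Fgf10: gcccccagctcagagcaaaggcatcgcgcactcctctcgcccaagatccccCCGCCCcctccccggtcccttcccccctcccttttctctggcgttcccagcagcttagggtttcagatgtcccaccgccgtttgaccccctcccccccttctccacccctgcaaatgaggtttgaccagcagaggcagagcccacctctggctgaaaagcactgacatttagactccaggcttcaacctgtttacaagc
Windows were found for 8 of the 10 genes, with 2 for Fgfr3, of which the more upstream is printed. The Fgfr2 stretch held none of the 3 motifs, whereas the Fgfr3 stretch held 3 GC boxes and 1 CCAAT box. Fgf7 had 1 CCAAT box and Fgf10 had 1 GC box. Over the 32851 such stretches of all genes, 32.7% held a GC box, 12.4% a TATA box and 33.9% a CCAAT box. In base composition the upstream stretches of Fgfr2 and Fgf7, at 44.0% and 43.6% G and C, lay below the median of 52.4%, and those of Fgfr3 and Fgf10, at 66.8% and 61.2%, lay above it. No match says only that these letters are absent from the window.

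Among the ligands, Fgf1 and Fgf2 were the most abundant and differed in direction. Fgf1 (ENSMUSG00000036585, chromosome 18, 38971726 to 39062525, minus strand), the acidic FGF that binds all receptors, was at 13.3 and 4.85 CPM in saline replicates 1 and 2 and at 16.9 and 22.0 CPM in ADC/cmLumiOpto replicates 1 and 2. Saline replicate 2 was far below the other 3 samples, and the gap between saline replicate 1 and the nearer treated sample was smaller than the gap between the saline samples. The log2 fold change was 1.09 (standard error 0.46, edgeR adjusted p = 0.222), 0.55 without saline replicate 2 and 1.99 without saline replicate 1.

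Fgf2 (ENSMUSG00000037225, chromosome 3, 37402495 to 37464257, plus strand), the basic FGF that is stored in the matrix and promotes vessel growth, was at 28.6 and 16.2 CPM in the saline samples and at 16.5 and 13.0 CPM after treatment. In CPM the groups overlapped, since saline replicate 2 lay between the treated samples. Its log2 fold change of -0.60 (standard error 0.32, edgeR adjusted p = 0.299) shrank to -0.15 without saline replicate 1. Nudt6, which overlaps Fgf2 on the opposite strand, had between 34 and 78 counts against 240 to 458 for Fgf2, and whether the library kept the strand is not stated.

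The FGFR2 ligand genes were rare. Fgf7 (ENSMUSG00000027208, chromosome 2, 125876578 to 125933105, plus strand), keratinocyte growth factor, had counts of 20 and 6 in controls against 41 and 68 in treated lungs. In CPM this was 1.25 and 0.404 against 2.32 and 3.32, so that every treated sample exceeded every saline sample. The log2 fold change was 1.75 (standard error 0.63, edgeR adjusted p = 0.176), and fits that omit 1 sample gave 1.17 to 2.77. Since only 1 saline sample reached the cutoff of the filter, Fgf7 was tested by virtue of its level after treatment. These values are therefore a description only. Fgf10 (ENSMUSG00000021732, chromosome 13, 118806327 to 118928651, plus strand), the ligand of lung branching, had counts of 27 and 23 in controls against 42 and 40 in treated lungs, and in CPM it was at 1.69 and 1.55 against 2.38 and 1.95. It varied least among samples, with a log2 fold change of 0.42 (standard error 0.45, edgeR adjusted p = 0.609), which was smaller than its standard error.

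Fgf18 (ENSMUSG00000057967, chromosome 11, 33067430 to 33097400, minus strand), a ligand of FGFR3 in cartilage and of alveolar development, had counts of 9 and 13 in controls against 25 and 37 in treated lungs. At 0.563 and 0.876 CPM against 1.42 and 1.80 CPM the groups did not overlap, and saline replicate 2 was here the higher of the controls. The log2 fold change was 1.16 (standard error 0.55, edgeR adjusted p = 0.259) with a range of 0.86 to 1.51 when 1 sample was omitted. Like Fgf7, Fgf18 was tested by virtue of its level after treatment. Fgf21 (ENSMUSG00000030827, chromosome 7, 45263310 to 45264914, minus strand), a metabolic hormone made mainly by liver, had counts of 2 and 0 in controls against 3 and 2 in treated lungs, at or under the floor, so no difference was detectable at this depth. Klb, which encodes its co-receptor β-Klotho and is named outside the rule for named genes, had 1, 0, 0 and 1 counts in the same order. Markers of hepatocytes were also close to 0, at no more than 0.674 CPM summed over 6 genes.

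**Figure D2:**
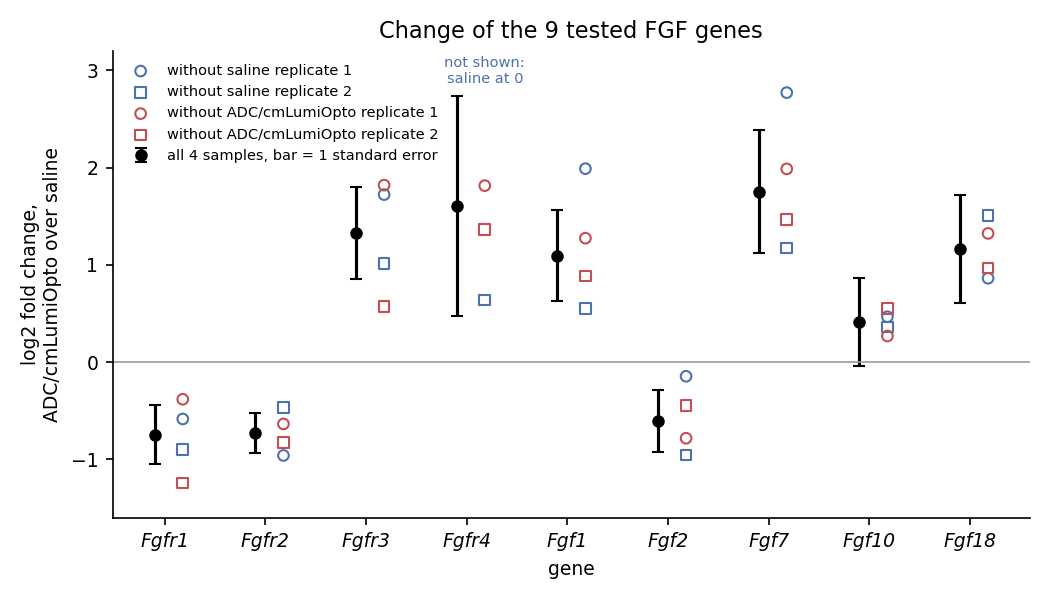
Log2 fold change of ADC/cmLumiOpto over saline for the 9 tested FGF genes, with all samples (black, bar of 1 standard error) and with each sample left out (open symbols). Every value keeps its sign, and Fgf2 comes closest to 0 at -0.15 without saline replicate 1. For Fgfr4 the value without saline replicate 1 is not shown, since the remaining saline sample has 0 counts.

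To compare levels between genes, counts were divided by gene length and rescaled to a common total per sample (TPM). Fgfr2 led in each sample, at 24.9 to 62.6 TPM, and did not overlap the next gene in either group. Fgfr1, Fgf2, Fgf1 and Fgfr3 followed in that order of mean TPM (9.17, 7.94, 7.33 and 4.76), and neighbors in this order overlapped in both groups except Fgf2 and Fgf1, which did not overlap after treatment, where Fgf1 was the higher. Fgf18, at 1.45 to 4.28 TPM, did not overlap Fgf7 in either group. Fgf7, Fgf10 and Fgfr4 came after it with mean values of 1.56, 1.16 and 1.01 TPM, and Fgf21 was last, at no more than 0.451 TPM. The order changed between groups, with Fgf1 and Fgfr3 in ranks 4 and 5 in saline and in ranks 2 and 3 after ADC/cmLumiOpto.

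Summed over the receptors, the level was 62.7 and 75.5 TPM in controls and 33.9 and 51.5 TPM in treated lungs, so the treated samples were lower without overlap. In TMM-scaled CPM the sums were 204 and 250 in controls and 130 and 172 in treated lungs, also without overlap. Fgfr2 held most of this sum, with 71.2% and 82.9% in saline replicates 1 and 2 and 73.5% and 61.5% in ADC/cmLumiOpto replicates 1 and 2. The share of Fgfr3 was 5.83% and 2.95% in saline and 10.7% and 18.6% after treatment. Relative to Fgfr1, Fgfr3 was at a TPM ratio of 0.274 and 0.209 in controls and of 0.861 and 1.13 in treated lungs. Fgfr1 and Fgfr2, both lower after treatment, kept overlapping ratios to each other, at 0.299 and 0.171 in saline and 0.169 and 0.267 after treatment.

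The sum over the 6 ligands overlapped between groups, at 24.5 and 13.7 TPM in saline and 20.5 and 25.4 TPM after treatment, whereas the shares of Fgf1, Fgf2 and Fgf7 in it did not. Fgf2 was 52.7% and 53.3% of the ligand sum in controls and 29.9% and 21.3% in treated lungs. The ratio of Fgf1 to Fgf2 in TPM was 0.577 and 0.372 in saline and 1.27 and 2.10 after treatment, so Fgf2 exceeded Fgf1 in both controls and the reverse held in both treated samples. These ratios were picked after the values were seen and carry no test.

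**Figure D3:**
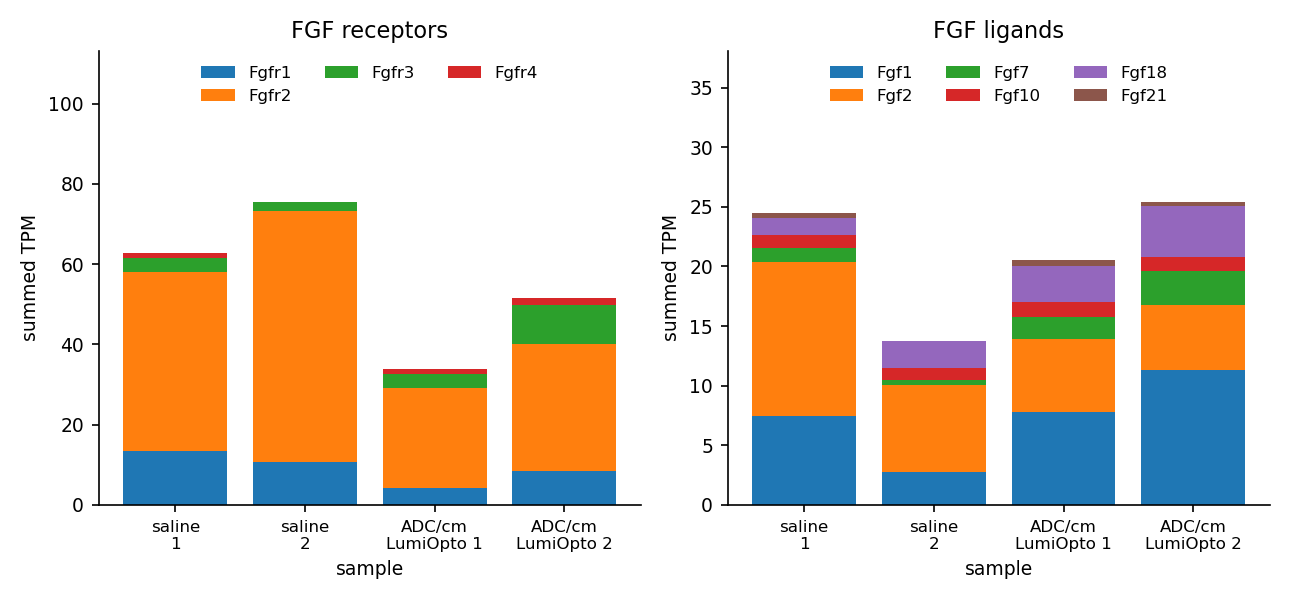
Summed TPM of the FGF receptors (left) and ligands (right) in each sample, split by gene. Fgfr2 (orange, left) takes between 61.5% and 82.9% of the receptor sum, and the Fgf2 part (orange, right) is smaller in both treated samples than in both saline samples.

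The rest of the pathway was described by 87 genes in 7 lists, of which 80 had a count in at least 1 sample and 69 were tested. Of these, 59 were lower and 10 higher after ADC/cmLumiOpto, with a median log2 fold change of -0.39, beside a median of 0.03 with 48.0% lower and 52.0% higher over all tested genes. No gene of the lists, and none of all tested genes, had an adjusted p under 0.05 in edgeR's quasi-likelihood test. At an unadjusted p under 0.05, 23 were lower and 3 higher, beside 12.2% lower and 11.0% higher of all tested genes. DESeq2 and the edgeR exact test each called 11, all lower. Of all tested genes, DESeq2 called 4.94% lower and 3.75% higher, and the exact test 3.68% lower and 3.96% higher. The count of lower genes was between 55 and 63 with each sample left out, over the pathway genes tested in each fit. Removing a trend with gene length moved the median of the relay list from -0.32 to -0.15, leaving out ADC/cmLumiOpto replicate 2 moved that of the feedback list from -0.46 to -0.71, and leaving out saline replicate 1 turned that of the splicing list from -0.49 to 0.16.

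Inside the cell, the relay list (24 genes from the adaptors to the MAP kinases) had 21 lower genes and a median of -0.32. Frs2, the docking protein that FGFRs phosphorylate, was at 47.3 and 63.1 CPM in saline and 29.0 and 36.0 CPM in treated lungs, for a log2 fold change of -0.76 (standard error 0.21, edgeR adjusted p = 0.130). The RAS activator Sos1 and the phospholipase gene Plcg1 had log2 fold changes of -0.71 and -0.62, with edgeR adjusted p of 0.123 and 0.165.

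All 8 transcriptional targets had lower fitted values, with a median of -0.66. Etv4, an ETS factor induced by FGF signaling, was at 111 and 133 CPM in saline and at 71.7 and 87.1 CPM after treatment, and the cell cycle gene Ccnd1 averaged 1511 ± 196 CPM (SD, n = 2) in controls against 877 ± 37.1 CPM (SD, n = 2) in treated lungs. In the fit, Etv4 and Ccnd1 had log2 fold changes of -0.62 and -0.79 (edgeR adjusted p of 0.141 and 0.116). For Fosl1, a subunit of AP-1, the log2 fold change was -1.43 (standard error 0.28, edgeR adjusted p = 0.116).

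Feedback inhibitors were also on the lower side, at 9 of 10 tested genes and a median of -0.46. Dusp4 and Dusp5, phosphatases of MAP kinases, had mean values of 112 ± 13.6 and 31.8 ± 3.11 CPM (SD, n = 2) in saline and 54.2 ± 5.59 and 16.4 ± 0.145 CPM (SD, n = 2) after treatment. On the log2 scale the fitted changes were -1.04 and -0.95, and that of the RAS pathway inhibitor Spred2 was -0.91, each with an edgeR adjusted p of 0.116. Many other signals induce these targets and inhibitors too, so their levels are not specific to FGF.

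Outside the cell, 17 of the 20 tested co-receptor and heparan sulfate genes were lower (median -0.40). Hspg2, which encodes the FGF-binding matrix proteoglycan perlecan, was at 697 and 1008 CPM in saline and 313 and 408 CPM in treated lungs, for a log2 fold change of -1.24 (standard error 0.24, edgeR adjusted p = 0.116). The sulfatase gene Sulf2, whose enzyme trims heparan sulfate, and the syndecan gene Sdc3 had log2 fold changes of -0.76 and -0.57 (edgeR adjusted p of 0.123 and 0.141).

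Of the 12 remaining secreted FGFs, 6 had no count in any sample and only Fgf22, a ligand of synapses and skin, was tested. It had 11 and 10 counts in saline and 1 and 3 after treatment, at or under the floor, and it passed the expression filter only through the saline samples, so no fold is given. The intracellular homologs Fgf13 and Fgf11, which are not secreted and act on sodium channels, had log2 fold changes of 2.04 and 0.29 (edgeR adjusted p of 0.176 and 0.727), and Fgf13 rested on 3 and 7 counts against 32 and 19 and passed the filter only through the treated samples.

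Splicing of FGFR2 into its epithelial form depends on Esrp1 and Esrp2, whereas Ptbp1 and Rbfox2 act on the same exons. Ptbp1 was at 420 ± 5.61 CPM (SD, n = 2) in saline and 235 ± 14.6 CPM (SD, n = 2) after treatment, and the log2 fold changes of Ptbp1 and Rbfox2 were -0.84 and -0.68 (edgeR adjusted p of 0.116 and 0.123). Esrp2 overlapped between groups, at 12.4 and 5.06 CPM in saline and 8.56 and 13.4 CPM after treatment.

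**Figure D4:**
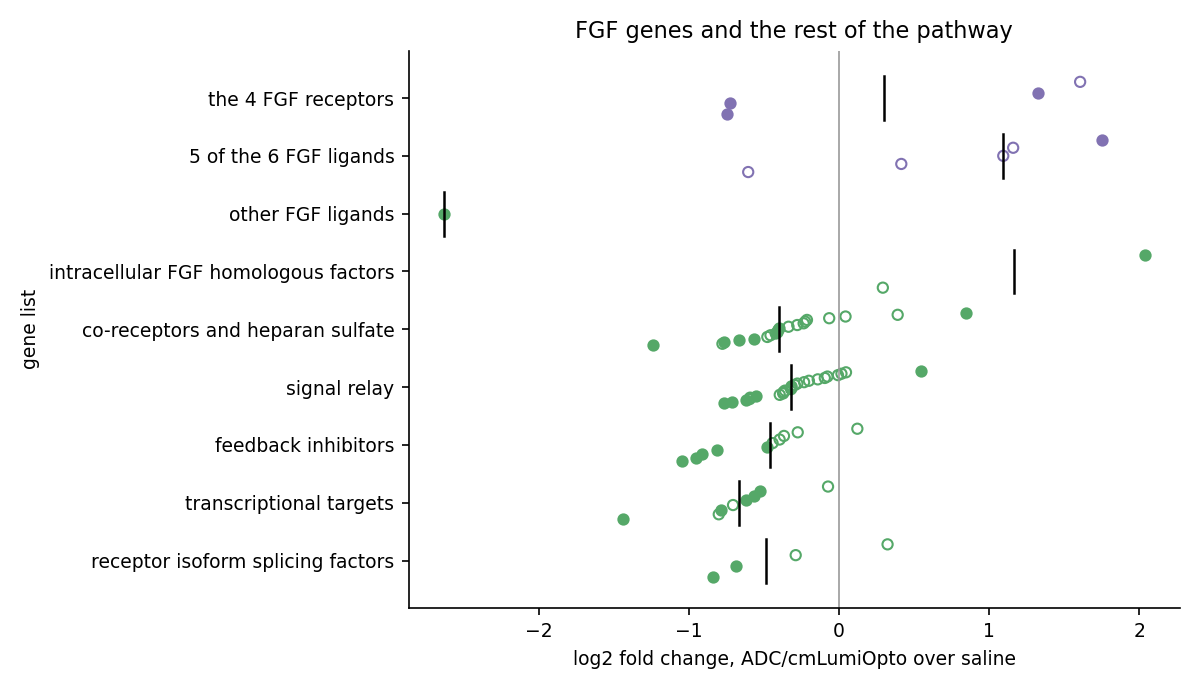
Log2 fold change (ADC/cmLumiOpto over saline) of the tested FGF receptors and ligands (purple) and of the other pathway genes (green) by list. Each point is a gene, filled at an unadjusted p under 0.05, and the vertical bar is the median of the list. The relay, inhibitor and target lists lie mostly below 0, with medians of -0.32, -0.46 and -0.66, whereas the receptors and ligands fall on both sides.

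For each receptor, the genes of the pathway lists with the most similar profile were found by the root mean square difference of centered log2 CPM over the 4 samples, among 69 genes. Fgfr2 was nearest to Frs2 (0.0544), Etv4 (0.0939) and Sulf2 (0.100), and Fgfr1 to Cbl (0.175), Plcg1 (0.181) and Gab1 (0.194). No pathway gene was as near to Fgfr3 or Fgfr4, for which the smallest differences were 0.497 (Esrp2) and 1.19 (Gpc3). The values were centered but not scaled, so this measure depends on the size of the changes as well as on their shape. With 4 samples it is a description only.

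Markers of normal lung epithelium were higher in the same samples as the FGF genes that were higher after treatment. For alveolar type 2 cells, 7 of 8 markers were higher, and their summed level was 1713 and 459 CPM in controls and 5782 and 4994 CPM in treated lungs. Alveolar type 1 markers (7 of 7 higher) summed to 311 and 131 CPM in saline and 776 and 786 CPM after treatment, and airway epithelial markers (7 of 7 higher) to 1158 and 86.8 CPM against 6260 and 2994 CPM. Much of these sums is 1 gene, as Sftpc held 69.0% of the alveolar type 2 sum, Ager 49.1% of the alveolar type 1 sum and Scgb1a1 93.0% of the airway sum. Saline replicate 2, which was lowest in these 3 sums, was also the lowest sample for Fgfr3, Fgfr4, Fgf1, Fgf7 and Fgf10 and the highest for Fgfr2. Between the treated samples, the alveolar type 2 and airway sums were higher in replicate 1, as was Fgf10. In contrast, Fgfr3, Fgfr4, Fgf1, Fgf7 and Fgf18 were higher in ADC/cmLumiOpto replicate 2.

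Endothelial markers (8 of 8 higher) summed to 440 and 342 CPM in saline and 475 and 725 CPM after treatment, and leukocyte markers (8 of 8 higher) to 744 and 537 CPM against 911 and 1212 CPM. ADC/cmLumiOpto replicate 2, the highest sample for both sums, was also the highest for Fgfr3, Fgfr4, Fgf1, Fgf7 and Fgf18. The tumor epithelial list (4 of 7 tested genes higher) was nearly level, between 2804 and 3248 CPM, and Krt5 in it had 5 counts in 1 sample and 0 in the other 3. Its genes, such as Epcam and Krt8, are not limited to tumor cells, so the sum does not measure tumor content.

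The fibroblast list, which covers cells that make FGF7 and FGF10, was mixed. Its sum was 5634 and 4149 CPM in saline and 2428 and 2165 CPM after treatment, led by the collagen gene Col1a1 with a log2 fold change of -2.02. In contrast Tcf21, Inmt and Mfap4, named because they were the only 3 higher genes of the 10, had log2 fold changes of 2.21, 2.58 and 1.44 (edgeR adjusted p of 0.123, 0.123 and 0.195). The lists for mural cells (1 of 7 higher) and mesothelium (2 of 5 higher) summed to 169 to 311 CPM and 231 to 340.3 CPM, cardiac markers (4 of 4 tested higher) to 81.9 to 123 CPM and skeletal muscle markers (1 of 3 tested higher) to 3.75 to 9.25 CPM. In edgeR's quasi-likelihood test the smallest adjusted p of a marker was 0.116, but other tools called markers. DESeq2 called 2 of 8 alveolar type 2, 6 of 7 alveolar type 1, 3 of 7 airway, 3 of 8 endothelial and 3 of 8 leukocyte markers, all higher, and the edgeR exact test called 7, 6, 3, 3 and 3 of them. Over all tested genes, DESeq2 called 3.75% higher and 4.94% lower, and the exact test 3.96% higher and 3.68% lower. Of the fibroblast markers DESeq2 called 1 higher and 4 lower and the exact test 2 higher and 4 lower, with Col1a1 at adjusted p of 3.83e-13 and 1.02e-08. Each of these tools also called 1 mural marker lower and 1 tumor epithelial marker higher. The part of cell composition in the FGF values was not tested.

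**Figure D5:**
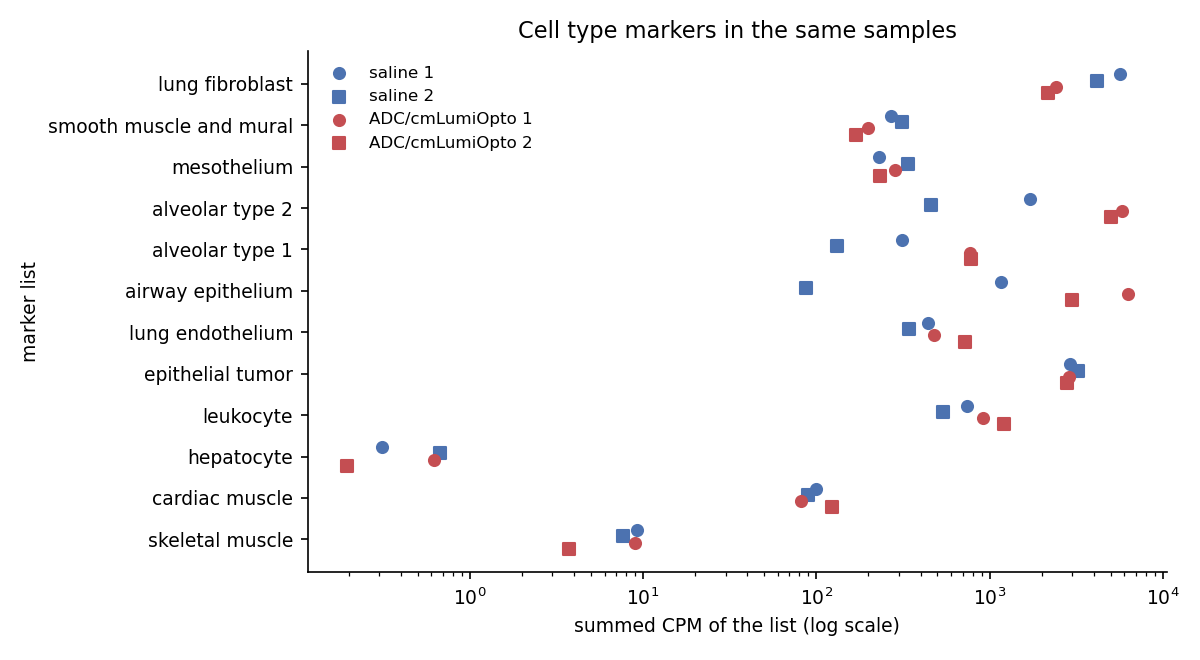
Summed CPM (log scale) of each cell type marker list in the 4 samples, saline in blue and ADC/cmLumiOpto in red, circles for replicate 1 and squares for replicate 2. The alveolar and airway lists are higher in both treated samples, with saline replicate 2 lowest (459 CPM for alveolar type 2 cells), while the tumor epithelial list stays between 2804 and 3248 CPM. The latter list is not limited to tumor cells and does not measure tumor content.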

How the data were processed

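RNA sequencing of 2 saline and 2 ADC/cmLumiOpto samples was grouped by sample title. For 56748 genes the table that the authors deposited holds unnormalized read counts and gene lengths. Alignment was with HISAT2, and the program that counted reads and the strand setting are not given in the sources used here. The analysis used edgeR 4.0.16 in R 4.3.3 with filterByExpr (minimum count 10, minimum total 15, 15320 genes kept), TMM, glmQLFit and glmQLFTest, and Benjamini-Hochberg adjustment over all tested genes with a threshold of 0.05. The standard error is the log2 fold change divided by the root of F. TPM was computed from the counts and listed lengths. The procedure was tested on simulated counts with the same fixed spread for every gene. That test does not show how the procedure performs at the spread between these mice.

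The 10 genes and the gene lists were chosen with earlier results of these data known. Named were all 10, the 3 tested genes of each pathway list with the smallest p, the 3 nearest to each receptor, and the most abundant marker of a list where used. Spry3 was not analysed here. Alternatives were DESeq2 1.42.0, the edgeR exact test, library size without TMM, other filters, the replicate number as a block, removal of a gene length trend (lowess span 0.3) and each sample left out.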

Additional observations from a re-analysis of the deposited data

How the results depend on the processing

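All 96 values of the 9 tested FGF genes under the alternatives kept the direction reported, and 6 of them had an adjusted p under 0.05. These were Fgfr2 with DESeq2 (log2 fold change -0.72) and, without the filter on low counts, Fgfr1 (-0.75), Fgfr2 (-0.73), Fgfr3 (1.32), Fgf1 (1.09) and Fgf7 (1.75), with edgeR adjusted p between 0.00146 and 0.0377. The number of FGF genes called was thus 0 with edgeR's quasi-likelihood test after the filter, 5 with the same test without it, and 1 with DESeq2. Without the filter 8.84% of 25563 genes were called. In that fit Scgb1a1 had an edgeR adjusted p of 2.20e-47, against 0.185 with the filter, though its saline samples were at 1085 and 73.9 CPM. Calls of the fit without the filter therefore carry little weight here. The cause of the difference between these fits was not tested.

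Over all genes, 0 were called by edgeR's quasi-likelihood test, with 3553 at an unadjusted p under 0.05, whereas DESeq2 called 1332, the edgeR exact test 1170 and the fit without the filter 2259. With each sample left out, the count was between 0 and 218, the latter without saline replicate 1, and the lone sample of a group was then assumed to vary like the others. Of the other pathway genes, 11 were called by DESeq2, 11 by the exact test and 17 without the filter. The shares over all genes tested in these fits were 8.69%, 7.64% and 8.84%. Fgfr4, Fgf7 and Fgf18 could not be fitted with at least 10 counts in every sample. Removing the length trend moved Fgfr1 and Fgfr2 to -0.51 and -0.46.

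Same-numbered samples share only a number, since they are different mice, and their deviations from the group means correlated at r = 0.0985 across 15320 genes. With the replicate number as a block, 607 genes (3.96% of all tested), 0 of the FGF genes and 6 other pathway genes were called.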
